A study of Homo sapiens with 6 samples.

Results

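The genes described here encode SR proteins, heterogeneous nuclear ribonucleoproteins (hnRNPs) and core factors of the spliceosome. Their transcripts were measured in SU-DHL-8, a human cell line derived from diffuse large B-cell lymphoma and labelled WT. Members were taken by gene symbol: SRSF genes, HNRNP genes, SF1, U2AF1, U2AF2, the SF3A and SF3B genes, PRPF genes and the SNRPA to SNRPG genes. Of 265 symbols that matched, 186 had the form of a pseudogene name and 9 had under 20 counts over the libraries, of which 6 were listed at 0. This left 70 members of 65746 symbols: 12 SR protein genes, 22 hnRNP genes, 12 genes for SF1, U2AF and SF3 proteins, 13 PRPF genes and 11 SNRP genes. RNA sequencing compared 3 libraries from cells given 100 nM erianin for 24 h with 3 libraries from cells given DMSO for the same time. Erianin, a bibenzyl known from Dendrobium plants, binds tubulin, and DMSO is the solvent control. The labels number the replicates and do not say whether they came from separate cultures, so the p-values speak only of library-to-library spread, some of which may be technical.

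The spliceosome removes introns in steps. U1 binds the 5′ splice site, SF1 and the U2AF pair mark the branch point, polypyrimidine tract and 3′ splice site, and U2 with its SF3A and SF3B proteins then binds the branch point. The U4/U6.U5 tri-snRNP, which carries many PRPF proteins, joins before catalysis, and rings of Sm proteins from SNRP genes hold the small nuclear RNAs. SR proteins mostly promote the use of exons and many hnRNPs oppose it. Transcripts of many SR and hnRNP genes carry exons that lead to decay of their own mRNA. A gene-level count does not separate such isoforms.

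Total counts were 30956443 to 35588728 per library. All 7 B-cell markers examined were present, summing to 2296 to 2569.8 CPM (counts scaled to library size by TMM) with erianin and 2717 to 3736 CPM with DMSO, while 4 T-cell markers summed to at most 0.0546 CPM in any library. Of 4 myeloid markers, 2 reached 1 CPM, and the 4 summed to 9.36 to 10.6 CPM with erianin and 4.30 to 7.27 CPM with DMSO, and their part in the results was not tested. Fewer cells of a kind and less RNA per cell cannot be told apart in these bulk libraries. DMSO replicate 1 stood apart from all other libraries. The biological coefficient of variation, a measure of spread beyond counting error, was 0.0336 to 0.0815 for pairs of erianin libraries and 0.0381 for DMSO replicates 2 and 3, but 0.291 and 0.294 for the pairs that hold DMSO replicate 1. Among the 67 members tested, 4 differed at least 2-fold between DMSO replicate 1 and the mean of the other DMSO libraries, against 9.97% of all genes tested. All 4 were lower in DMSO replicate 1: SNRPB, SRSF9, HNRNPA0 and SNRPD2. Across the 66 members with annotated transcripts, this difference had a Spearman correlation of -0.33 with GC content and 0.45 with transcript length. Over all genes tested that have annotated transcripts these were -0.52 and 0.33, also as a description of 3 libraries that share these genes. Its part in the results was not tested, so member results stand with and without DMSO replicate 1.

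Promoters of 4 members with a call are shown as examples: SRSF1 and SRSF3, which rose, and SRSF4 and SF3A1, which fell. The 4 do not stand for all called members. HNRNPM and PRPF4 rose with neither motif marked below, and SNRPB2 rose with CCGGAAG. Of the members that fell, 5 of 12 promoters held CCGGAAG. The other motifs searched are not marked. The sequences are from RefSeq (GRCh38.p14) and run from 250 bases before to 50 bases after the annotated start, 5′ to 3′ on the gene's strand. They lie at chr17:58007197-58007496 on the minus strand for SRSF1, chr6:36594112-36594411 on the plus strand for SRSF3, chr1:29181851-29182150 on the minus strand for SRSF4 and chr22:30356845-30357144 on the minus strand for SF3A1. Capitals mark TGACGT, a partial cyclic AMP response element, and CCGGAAG, the core of an ETS site, on either strand.
SRSF1: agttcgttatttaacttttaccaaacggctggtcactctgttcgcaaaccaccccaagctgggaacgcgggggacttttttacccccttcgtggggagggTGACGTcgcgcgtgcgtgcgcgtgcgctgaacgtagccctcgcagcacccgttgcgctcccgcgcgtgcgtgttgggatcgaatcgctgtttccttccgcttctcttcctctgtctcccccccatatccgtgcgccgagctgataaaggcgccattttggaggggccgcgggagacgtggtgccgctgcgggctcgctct
SRSF3: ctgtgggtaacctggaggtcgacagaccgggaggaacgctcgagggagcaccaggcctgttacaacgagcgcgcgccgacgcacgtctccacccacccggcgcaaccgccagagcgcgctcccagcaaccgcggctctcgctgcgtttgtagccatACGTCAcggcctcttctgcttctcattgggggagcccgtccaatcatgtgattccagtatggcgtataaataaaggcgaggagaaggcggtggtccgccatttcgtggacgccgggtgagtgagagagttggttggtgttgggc
SRSF4: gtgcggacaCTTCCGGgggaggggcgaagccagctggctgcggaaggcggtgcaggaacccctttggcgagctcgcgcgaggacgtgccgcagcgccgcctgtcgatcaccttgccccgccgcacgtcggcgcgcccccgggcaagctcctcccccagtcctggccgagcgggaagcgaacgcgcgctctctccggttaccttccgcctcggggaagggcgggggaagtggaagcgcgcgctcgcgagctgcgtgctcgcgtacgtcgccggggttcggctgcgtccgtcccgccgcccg
SF3A1: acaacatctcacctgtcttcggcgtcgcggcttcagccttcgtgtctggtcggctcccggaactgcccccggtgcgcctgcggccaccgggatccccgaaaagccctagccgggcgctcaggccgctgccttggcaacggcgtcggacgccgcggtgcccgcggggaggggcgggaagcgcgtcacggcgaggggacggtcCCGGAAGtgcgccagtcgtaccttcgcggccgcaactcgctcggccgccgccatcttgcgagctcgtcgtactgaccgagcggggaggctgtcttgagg

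RefSeq promoters were matched to 62 of the 70 members, among them all 5 that rose and 12 of the 13 that fell. TGACGT occurred in 2 of the 5 promoters of members that rose, those of SRSF1 and SRSF3, in 0 of the 12 of members that fell, and in 8.32% of 27305 promoters. CCGGAAG occurred in 1 of 5 (SNRPB2) and in 5 of 12 (HNRNPF, SF3A1, SF3A2, SF3B2 and SRSF4), against 10.7% of all promoters. Of the other motifs searched on both strands, CCAAT occurred in 1 of 5 and 5 of 12 (all promoters 35.7%), and the GC box GGGCGG in 1 of 5 and 8 of 12 (44.6%). CACGTG, an E-box, occurred in 1 of 5 and 2 of 12 (7.43%), the YY1 core AAGATGG in 0 of 5 and 2 of 12 (6.06%), and TATAAA in 1 of 5 and 0 of 12 (11.9%). Matches of TGACGT and CACGTG can share no more than their end letters. Over all 62 promoters of members, TGACGT occurred in 11, CCGGAAG in 20, CCAAT in 28, GGGCGG in 39 (62.9%), CACGTG in 8, AAGATGG in 6 and TATAAA in 6. The search also held 2 longer motifs, an NRF1 site and a heat shock element, which matched 0 promoters of called members and are not listed. A match describes letters, not binding.

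The comparison asked how erianin changed transcripts of the splicing machinery. With all libraries, 5 members rose and 13 fell of 67 tested, by edgeR's quasi-likelihood test at an adjusted p under 0.05 over 11550 genes. Those that rose were SRSF1, SRSF3, HNRNPM, PRPF4 and SNRPB2. SRSF4, SRSF10, HNRNPF, HNRNPUL1, HNRNPDL, SF3A1, SF3A2, SF3B2, SF3B3, PRPF8, PRPF19, PRPF40B and SNRPA fell. The shares, 7.46% higher and 19.4% lower, stand beside 11.8% higher and 12.3% lower among all genes tested, and the 26.9% called in either direction beside 24.2%. No member reached a 2-fold difference. Log2 fold changes ran from -0.99 for SF3A1 to 0.74 for HNRNPA0, and HNRNPA0 was not called. The median was -0.13 over the members and -0.0033 over all genes. Without DMSO replicate 1, 21 members were higher and 21 lower of 68 tested, 30.9% each, beside 27.8% and 27.4% of all genes and 55.3% in either direction. All 18 members called with 6 libraries were then called in the same direction.

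Removing erianin replicate 1 or erianin replicate 2 left 4 of the 18 calls, SRSF4, SF3A2, SF3B3 and SNRPA, while removing erianin replicate 3 left 10. Calls over all genes fell too, from 1368 higher and 1423 lower. They were 429 and 348 without erianin replicate 1, 407 and 338 without erianin replicate 2, and 617 and 581 without erianin replicate 3. Losses given below by class and by companion gene stand beside these all-gene counts. Scaling by total counts alone gave 10 higher and 10 lower members, and 1840 higher and 918 lower of all genes, against 1368 and 1423. Counts scaled that way had a median log2 fold change of 0.11 over all genes. On the deposited TPM, which summed over the listed genes to 39.2% of the full TPM total in DMSO replicate 1 and to 63.6 to 66.7% in the others, the calls of SRSF1, SRSF4, HNRNPUL1, HNRNPDL and SF3A1 remained, and 4 members were higher and 4 lower in all. Of all genes, 1408 were higher and 262 lower on log2(TPM + 1). With offsets for GC content and transcript length, 8 of 66 members tested were higher (12.1%) and 24 lower (36.4%), beside 15.3% and 21.6% of all genes. DESeq2 gave 7 higher (10.0%) and 18 lower (25.7%) of 70 members. Beside these stand 13.4% and 15.7% of the 11773 genes that passed edgeR's filter without DMSO replicate 1. SRSF12 and HNRNPUL2-BSCL2 lie outside those 11773 genes. DESeq2 itself ran without that filter, on 18157 genes, of which 1607 were higher and 1852 lower.

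**Figure D1:**
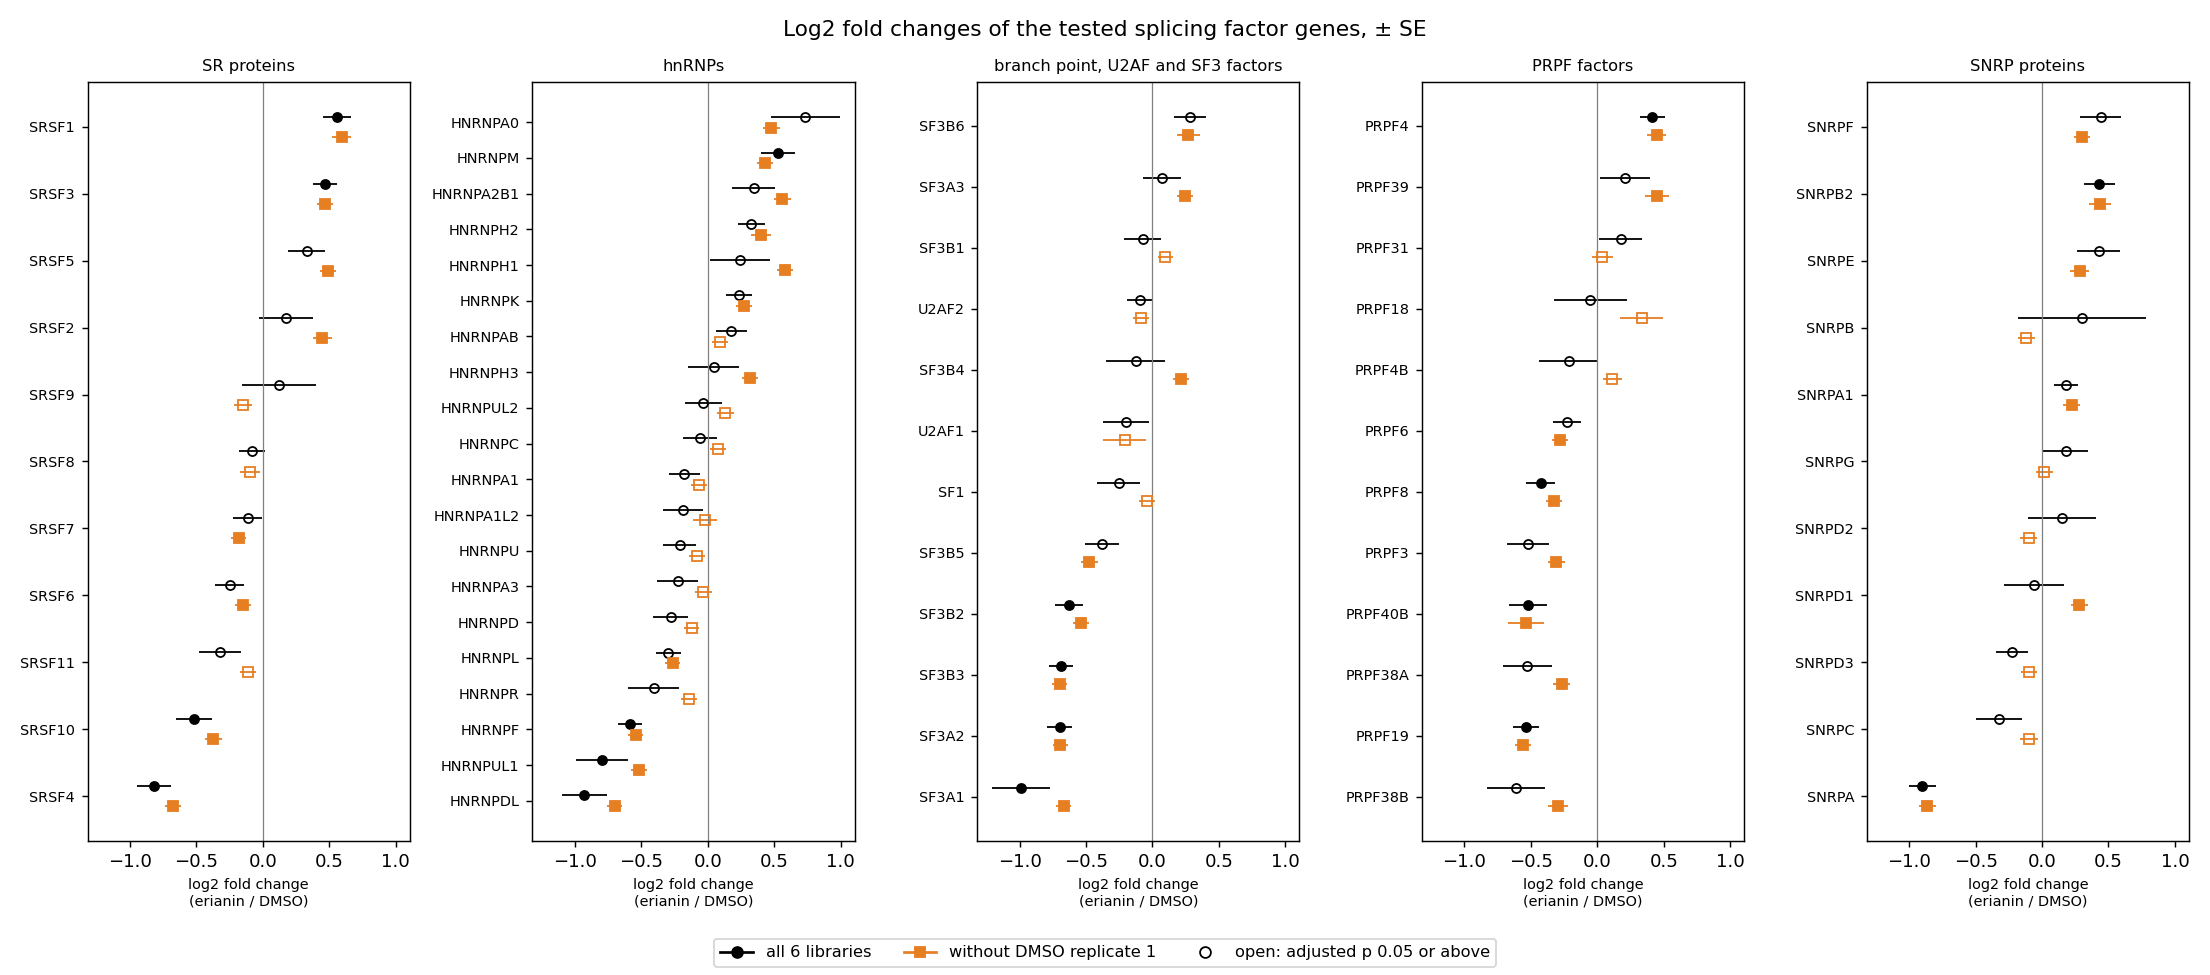
Log2 fold change (erianin over DMSO) ± SE of 66 of the 67 members tested, by class, with all 6 libraries (black circles) and without DMSO replicate 1 (orange squares); filled symbols passed an adjusted p under 0.05. Filled black symbols mark 5 members to the right of 0 and 13 to the left, with SF3A1 lowest at -0.99.

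SR protein genes went both ways. SRSF1, which promotes exon definition and is a known oncogene (chromosome 17, 58003360 to 58007346, minus strand, GRCh38), had 273, 276 and 231 CPM with erianin, against 182, 170.2 and 178 CPM with DMSO replicates 1, 2 and 3. All erianin libraries lay above all DMSO libraries, and SRSF1 rose (log2 fold change 0.56 ± 0.11, adjusted p = 0.012; 0.59 ± 0.071, adjusted p = 1.2e-07 without DMSO replicate 1). SRSF3, the smallest SR protein and an adaptor for mRNA export, had 509.7, 478 and 477 CPM with erianin, against 344, 354 and 360.4 CPM with DMSO. SRSF3 likewise rose with no overlap between groups (log2 fold change 0.47 ± 0.09, adjusted p = 0.012; 0.46 ± 0.06, adjusted p = 3.8e-07 without DMSO replicate 1). SRSF4, a large SR protein with a long arginine-serine domain (chromosome 1, 29147743 to 29181987, minus strand), had 165, 166 and 174 CPM with erianin, against 350.4, 279 and 265 CPM with DMSO. Every erianin library was below every DMSO library, and SRSF4 fell most of its class (log2 fold change -0.82 ± 0.13, adjusted p = 0.0059; -0.68 ± 0.06, adjusted p = 7.5e-10 without DMSO replicate 1). SRSF10, which turns into a splicing repressor when dephosphorylated in heat shock or mitosis, had 235, 241 and 209 CPM with erianin, against 384, 293 and 305 CPM with DMSO. It fell as well (log2 fold change -0.52 ± 0.13, adjusted p = 0.03; -0.38 ± 0.064, adjusted p = 2.3e-05 without DMSO replicate 1).

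The test covered 11 SR protein genes: 2 rose, 2 fell and 7 had no call, and without DMSO replicate 1 the calls were 4 higher and 4 lower of 11. These are 18.2% higher and 18.2% lower, beside 11.8% and 12.3% of all genes, and 36.4% and 36.4% without that library, beside 27.8% and 27.4%. Their median log2 fold change was -0.08 with all libraries and -0.11 without DMSO replicate 1. SRSF2, a nuclear speckle protein also called SC35, had 173, 177 and 147 CPM with erianin, against 196, 119 and 126 CPM with DMSO. Its highest value was that of DMSO replicate 1, and the groups overlapped (log2 fold change 0.17 ± 0.20, adjusted p = 0.58), but without that library SRSF2 was called higher (0.45 ± 0.073, adjusted p = 1.2e-05). SRSF5 had 204, 206 and 193 CPM with erianin, against 192, 149 and 140.2 CPM with DMSO, with no overlap but no call (log2 fold change 0.33 ± 0.14, adjusted p = 0.12), and was also called higher without DMSO replicate 1 (0.49 ± 0.063, adjusted p = 3.5e-07). SRSF6 and SRSF7, which were not called with all libraries, were called lower without it (-0.15 ± 0.059, adjusted p = 0.036 for SRSF6 and -0.18 ± 0.059, adjusted p = 0.011 for SRSF7). SRSF9 had 145, 153 and 168 CPM with erianin, against 80.7, 169 and 178 CPM with DMSO, where DMSO replicate 1 was lowest of all libraries. Its log2 fold change was 0.12 (adjusted p = 0.78), and -0.15 ± 0.067, adjusted p = 0.061 without DMSO replicate 1. SRSF8 and SRSF11 were not called in either fit, though SRSF11 was called lower with the GC content and length offsets (adjusted p = 0.017). SRSF12 had 2 to 8 counts per library and was not tested.

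The SR class took 0.272, 0.277 and 0.254% of counts with erianin, against 0.282, 0.243 and 0.244% with DMSO replicates 1, 2 and 3. Within a library, the count of SRSF1 over that of SRSF4 was 1.65, 1.66 and 1.32 with erianin, against 0.520, 0.610 and 0.669 with DMSO. For SRSF3 over SRSF4 the ratio was 3.08, 2.88 and 2.74 with erianin, against 0.981, 1.27 and 1.36 with DMSO. Neither ratio overlapped between groups, though these genes were paired after their values were seen. The calls of SRSF1, SRSF3 and SRSF10 were lost without erianin replicate 1 (adjusted p = 0.07 to 0.11) or erianin replicate 2 (adjusted p = 0.065 to 0.1), and that of SRSF10 without erianin replicate 3 too (adjusted p = 0.11). In GENCODE 29, SRSF1 shares 1890 of 3340 exonic bases with AC015813.2 on the same strand, SRSF2 shares 1106 of 3017 with MFSD11 on the opposite strand, and SRSF9 shares 1729 of 3744 with GATC on the opposite strand. Whether counting used strand is not given in the sources used here, so reads of these pairs may be mixed.

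**Figure D2:**
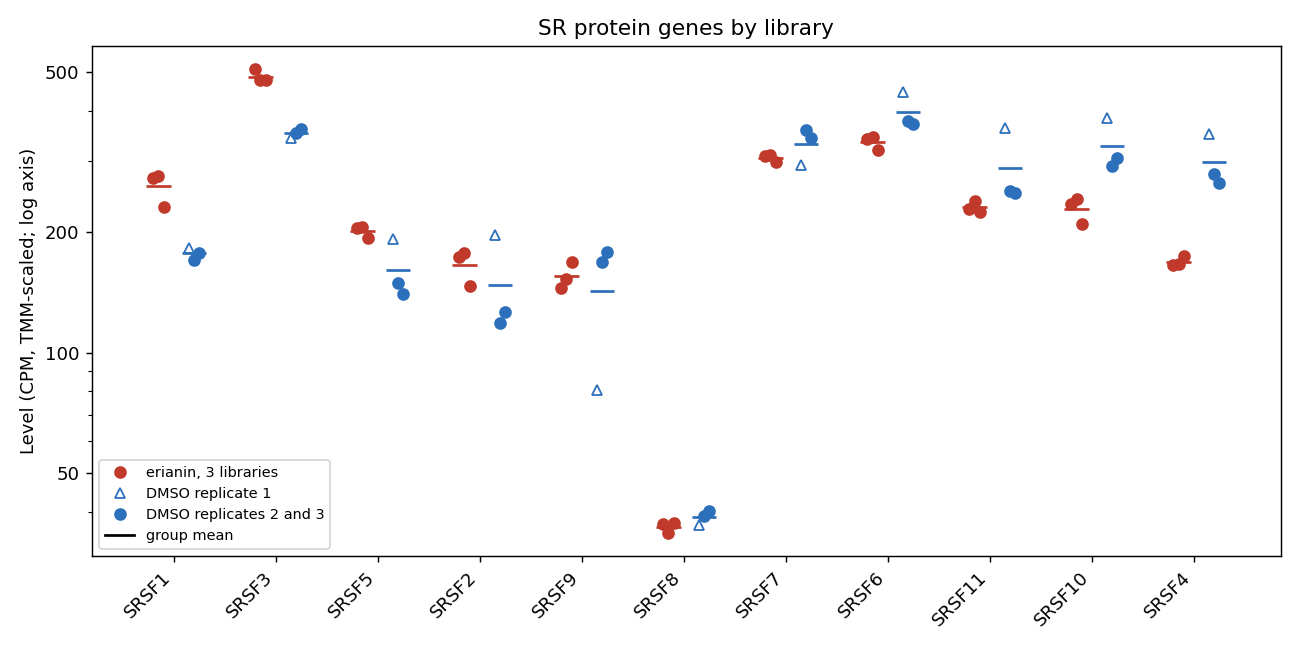
Level of the 11 tested SR protein genes in each library (CPM with TMM scaling, log axis), erianin in red and DMSO in blue, with DMSO replicate 1 as an open triangle and group means as lines. SRSF1 and SRSF3 lie higher with erianin and SRSF10 and SRSF4 lower, while SRSF9 is lowest in DMSO replicate 1 at 80.7 CPM.

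HNRNPDL, a paralog of HNRNPD that binds AU-rich RNA (chromosome 4, 82422564 to 82430408, minus strand), fell most of the hnRNP genes. It had 242, 236 and 223 CPM with erianin, against 567, 388 and 378 CPM with DMSO (log2 fold change -0.93 ± 0.17, adjusted p = 0.0097; -0.70 ± 0.059, adjusted p = 3.6e-10 without DMSO replicate 1). HNRNPUL1, a protein of the hnRNP U family tied to DNA damage responses, had 441, 458 and 493 CPM with erianin, against 1078, 660.2 and 681 CPM with DMSO. It fell as well (log2 fold change -0.80 ± 0.20, adjusted p = 0.026; -0.52 ± 0.061, adjusted p = 8.7e-08 without DMSO replicate 1). For both genes DMSO replicate 1 was the highest library, and the other DMSO libraries were also above every erianin library. HNRNPF, which binds runs of G, had 653, 641 and 659 CPM with erianin, against 1016, 964 and 949 CPM with DMSO and fell with tighter DMSO values (log2 fold change -0.58 ± 0.092, adjusted p = 0.006; -0.54 ± 0.057, adjusted p = 1.7e-08 without DMSO replicate 1). HNRNPM had 785, 813 and 833 CPM with erianin, against 469, 606 and 608 CPM with DMSO. This regulator of alternative splicing was the hnRNP gene that rose (log2 fold change 0.53 ± 0.13, adjusted p = 0.024; 0.43 ± 0.059, adjusted p = 1.1e-06 without DMSO replicate 1).

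The test covered 20 hnRNP genes: 1 rose, 3 fell and 16 had no call, and without DMSO replicate 1 the calls were 7 higher and 4 lower of 21. These are 5% higher and 15% lower, beside 11.8% and 12.3% of all genes, and 33.3% and 19.0% without that library, beside 27.8% and 27.4%. Their median log2 fold change was -0.12 with all libraries and 0.075 without DMSO replicate 1. Close paralogs of HNRNPF were not called by the main edgeR test with all libraries. HNRNPH1, which binds the same G runs, had 647, 675 and 621 CPM with erianin, against 768, 443 and 431 CPM with DMSO. DMSO replicate 1 was the highest of all libraries and HNRNPH1 was not called (log2 fold change 0.24 ± 0.22, adjusted p = 0.47), but it was called higher without that library (0.58 ± 0.061, adjusted p = 1.5e-08). HNRNPH2 had 53.2, 53.7 and 53.0 CPM with erianin, against 46.0, 40.5 and 40.8 CPM with DMSO, without overlap, and narrowly missed the threshold (log2 fold change 0.33 ± 0.10, adjusted p = 0.051; 0.40 ± 0.074, adjusted p = 5.4e-05 without DMSO replicate 1). HNRNPH3 was called higher in the fit without DMSO replicate 1 (0.32 ± 0.061, adjusted p = 8.1e-05), against 0.045 ± 0.19 with all libraries. The count of HNRNPD over that of its paralog HNRNPDL was 3.10, 3.30 and 3.57 with erianin, against 1.98, 2.18 and 2.26 with DMSO, with no overlap. This pair was picked after its values were seen.

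Among the antagonists of SR proteins, HNRNPA2B1 had 1859.7, 1914 and 1811 CPM with erianin, against 1854, 1301 and 1242 CPM with DMSO. It was not called with all libraries (adjusted p = 0.17) and was called higher without DMSO replicate 1 (0.56 ± 0.061, adjusted p = 2.5e-08). HNRNPA1, a well-studied antagonist of SRSF1, had 3153, 3095 and 2975 CPM with erianin, against 3924, 3318 and 3176 CPM with DMSO, and was not called in either fit (log2 fold change -0.18 ± 0.12, adjusted p = 0.32; -0.066 ± 0.061, adjusted p = 0.37 without DMSO replicate 1). HNRNPA0, a single-exon gene whose protein binds AU-rich elements, had 520.0, 554 and 588 CPM with erianin, against 196, 395 and 408 CPM with DMSO. The groups did not overlap, but DMSO replicate 1 had less than the other DMSO libraries and the gene was not called (log2 fold change 0.74 ± 0.26, adjusted p = 0.079). Without that library HNRNPA0 was called higher (0.48 ± 0.063, adjusted p = 5.3e-07). HNRNPK, which binds runs of C, and HNRNPL, which binds CA repeats, were also called in that fit, HNRNPK higher (0.28 ± 0.061, adjusted p = 4.0e-04) and HNRNPL lower (-0.26 ± 0.06, adjusted p = 5.5e-04). HNRNPC, HNRNPU, HNRNPD, HNRNPR, HNRNPA3, HNRNPAB, HNRNPUL2 and HNRNPA1L2 were not called in either fit. HNRNPCL1 and the read-through transcript HNRNPUL2-BSCL2 had too few counts to be tested with all libraries.

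Without DMSO replicate 1, 7 hnRNP genes were higher and 4 lower of 21 (33.3% and 19.0%), beside 27.8% and 27.4% of all genes. With the GC content and length offsets, 3 were higher and 7 lower of 20 tested (15% and 35%), beside 15.3% and 21.6% of all genes. HNRNPD, HNRNPR and HNRNPA3 were then called lower (adjusted p = 0.04, 0.023 and 0.031). The hnRNP class took 1.46, 1.501 and 1.42% of counts with erianin, against 1.66, 1.31 and 1.30% with DMSO. DMSO replicate 1 had the largest share of the 6 libraries, and the other DMSO libraries the smallest. The calls of HNRNPF, HNRNPM, HNRNPDL and HNRNPUL1 were lost without erianin replicate 1 (adjusted p = 0.052 to 0.11) or erianin replicate 2 (adjusted p = 0.055 to 0.11), and those of HNRNPM, HNRNPDL and HNRNPUL1 without erianin replicate 3 (adjusted p = 0.056 to 0.088). Many hnRNP genes have processed pseudogenes, with 127 such symbols in the table. Few counts were listed for these copies, at most 217 over all libraries (HNRNPA1P7), against 661714 for HNRNPA1. Whether reads that map to more than 1 copy were left out is not given in the sources used here.

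Genes of the SF3A and SF3B complexes, which hold U2 on the branch point, included 4 that fell with all libraries. In this class 0 of 12 were higher by edgeR with all libraries, beside 11.8% of all genes, and 0 by DESeq2. At an unadjusted p under 0.05 edgeR also gave 0, and the share of all genes there was not computed. Without DMSO replicate 1, 3 of 12 were higher (25%), beside 27.8% of all genes. By DESeq2 with all libraries, 5 of 12 were lower (41.7%). Beside these stand 13.4% higher and 15.7% lower of the 11773 genes that passed edgeR's filter without DMSO replicate 1. SF3A1 (chromosome 22, 30331988 to 30356947, minus strand) had 282, 288 and 303 CPM with erianin, against 802, 468 and 466 CPM with DMSO. It fell (log2 fold change -0.99 ± 0.22, adjusted p = 0.018), and by less without DMSO replicate 1, its highest library (-0.67 ± 0.058, adjusted p = 6.1e-10). SF3A2 (chromosome 19, 2236504 to 2248679, plus strand) had 219, 222 and 241 CPM with erianin, against 366, 369 and 372 CPM with DMSO. The DMSO libraries lay closer together than the erianin libraries, and SF3A2 fell (log2 fold change -0.70 ± 0.092, adjusted p = 0.0035; -0.69 ± 0.06, adjusted p = 5.8e-10 without DMSO replicate 1). SF3B3, a scaffold of SF3B (chromosome 16, 70523788 to 70577670, plus strand), had 356, 353 and 363 CPM with erianin, against 557, 585 and 584 CPM with DMSO (log2 fold change -0.69 ± 0.089, adjusted p = 0.0034; -0.70 ± 0.057, adjusted p = 2.0e-10 without DMSO replicate 1). SF3B2, another SF3B subunit, had 465, 460.2 and 486 CPM with erianin, against 801, 709 and 669 CPM with DMSO (log2 fold change -0.63 ± 0.11, adjusted p = 0.0076; -0.54 ± 0.059, adjusted p = 3.0e-08 without DMSO replicate 1). All 4 fell with every erianin library below every DMSO library. Of the genes without a call in this class, 2 also had no overlap and 6 overlapped. The share without overlap among all genes was not computed.

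The other subunits of the same complexes were not called by the main edgeR test with all libraries. SF3A3, which forms a trimer with SF3A1 and SF3A2, had 236, 238 and 223 CPM with erianin, against 268, 204 and 191 CPM with DMSO. It was not called with all libraries (adjusted p = 0.75) and was called higher without DMSO replicate 1 (0.25 ± 0.062, adjusted p = 0.0016). SF3A3 over SF3A1 had a count ratio of 0.837, 0.827 and 0.736 with erianin, against 0.334, 0.437 and 0.410 with DMSO replicates 1, 2 and 3, without overlap. SF3B1, which clamps the branch point helix, had 433, 428 and 405 CPM with erianin, against 537, 403 and 392.2 CPM with DMSO and was not called in either fit (log2 fold change -0.074 ± 0.14, adjusted p = 0.74; 0.098 ± 0.059, adjusted p = 0.17 without DMSO replicate 1). SF3B6, which sits at the branch adenosine, had 69.99, 67.4 and 54.7 CPM with erianin, against 50.4, 53.8 and 53.5 CPM with DMSO and was called higher without DMSO replicate 1 (0.27 ± 0.086, adjusted p = 0.011). Its count over that of SF3B3 was 0.197, 0.191 and 0.151 with erianin, against 0.0905, 0.0919 and 0.0916 with DMSO, again without overlap. These pairs were picked after their values were seen. SF3B4 had opposite signs in the fits, with a log2 fold change of -0.13 ± 0.23 (adjusted p = 0.72) with all libraries and 0.22 ± 0.059, adjusted p = 0.0032 without DMSO replicate 1. SF3B5 was called lower in the fit without DMSO replicate 1 (-0.48 ± 0.062, adjusted p = 5.0e-07). With all libraries its adjusted p was 0.072 by the main edgeR test. It was called lower by DESeq2 (adjusted p = 0.045) and by edgeR with the GC content and length offsets (adjusted p = 0.007).

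The genes that recognise the branch point and 3′ splice site before U2 were not called in either fit. SF1, the branch point binding protein, had 434, 446 and 479 CPM with erianin, against 680.2, 466 and 476 CPM with DMSO, with overlap between groups (log2 fold change -0.25 ± 0.16, adjusted p = 0.29). U2AF2, which binds the polypyrimidine tract, had 586, 569 and 642 CPM with erianin, against 638, 639.5 and 643 CPM with DMSO (log2 fold change -0.096 ± 0.095, adjusted p = 0.5). U2AF1, which reads the AG of the 3′ splice site, had 5.60, 4.62 and 4.52 CPM with erianin, against 5.45, 4.93 and 6.53 CPM with DMSO (log2 fold change -0.20 ± 0.17, adjusted p = 0.44). GENCODE 29 lists a near-identical gene, U2AF1L5, on the same chromosome, and reads that map to both can be lost, so the low U2AF1 level is uncertain. The test covered 12 genes for SF1, U2AF and SF3 proteins: 0 rose, 4 fell and 8 had no call, and without DMSO replicate 1 the calls were 3 higher and 5 lower of 12. These are 0% higher and 33.3% lower, beside 11.8% and 12.3% of all genes, and 25% and 41.7% without that library, beside 27.8% and 27.4%. Their median log2 fold change was -0.23 with all libraries and -0.15 without DMSO replicate 1. The calls of SF3A1 and SF3B2 were lost without erianin replicate 1 (adjusted p = 0.059 to 0.084) or erianin replicate 2 (adjusted p = 0.061 to 0.085), and that of SF3A1 without erianin replicate 3 (adjusted p = 0.074).

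Of the PRPF genes, most of which encode proteins of the tri-snRNP or of the activated spliceosome, more fell than rose. PRPF19, the ubiquitin ligase at the centre of the Prp19 complex, had 481, 465 and 517 CPM with erianin, against 671, 724 and 724 CPM with DMSO and fell (log2 fold change -0.53 ± 0.097, adjusted p = 0.0097; -0.56 ± 0.06, adjusted p = 2.5e-08 without DMSO replicate 1). PRPF8, the U5 protein at the catalytic core, had 814, 811 and 871 CPM with erianin, against 1253, 1054 and 1050.1 CPM with DMSO and fell (log2 fold change -0.43 ± 0.11, adjusted p = 0.031; -0.33 ± 0.059, adjusted p = 4.7e-05 without DMSO replicate 1). PRPF40B, a U1-associated protein, was low and fell, with 5.49, 6.85 and 5.77 CPM with erianin, against 8.34, 9.06 and 8.59 CPM with DMSO (log2 fold change -0.52 ± 0.14, adjusted p = 0.034; -0.54 ± 0.14, adjusted p = 0.0018 without DMSO replicate 1). PRPF4, a U4/U6 protein, had 87.5, 84.5 and 81.2 CPM with erianin, against 65.0, 61.0 and 63.9 CPM with DMSO and rose (log2 fold change 0.41 ± 0.094, adjusted p = 0.02; 0.45 ± 0.07, adjusted p = 6.9e-06 without DMSO replicate 1). For each of these 4 genes the erianin and DMSO libraries did not overlap. Of the PRPF genes without a call, 4 also had no overlap and 5 overlapped, and the share among all genes was not computed. PRPF3, the partner of PRPF4 in U4/U6, had 157, 150.2 and 153 CPM with erianin, against 277, 199 and 184 CPM with DMSO and just missed the threshold (log2 fold change -0.52 ± 0.16, adjusted p = 0.054; -0.31 ± 0.062, adjusted p = 1.5e-04 without DMSO replicate 1). The count of PRPF4 over that of PRPF3 was 0.559, 0.562 and 0.532 with erianin, against 0.235, 0.307 and 0.348 with DMSO, higher in every erianin library. This pair was picked after its values were seen.

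The test covered 13 PRPF genes: 1 rose, 3 fell and 9 had no call, and without DMSO replicate 1 the calls were 2 higher and 7 lower of 13. These are 7.69% higher and 23.1% lower, beside 11.8% and 12.3% of all genes, and 15.4% and 53.8% without that library, beside 27.8% and 27.4%. Their median log2 fold change was -0.32 with all libraries and -0.27 without DMSO replicate 1. PRPF38A and PRPF38B, of the precatalytic complex, and PRPF6, which bridges U5 to U4/U6, were called lower without DMSO replicate 1 (-0.27 ± 0.066, adjusted p = 0.0012 for PRPF38A, -0.30 ± 0.073, adjusted p = 0.0013 for PRPF38B and -0.28 ± 0.061, adjusted p = 3.9e-04 for PRPF6). PRPF39, a U1-associated protein, was called higher in that fit (0.45 ± 0.092, adjusted p = 1.9e-04). PRPF31, PRPF18 and the kinase gene PRPF4B were not called in either fit. PRPF4, PRPF8 and PRPF40B each lost their call when any single erianin library, DMSO replicate 2 or DMSO replicate 3 was left out (adjusted p = 0.054 to 0.16), and that of PRPF19 without erianin replicate 1 (adjusted p = 0.07) or erianin replicate 2 (adjusted p = 0.075). PRPF8 and PRPF40B were not called with upper-quartile scaling or total counts, nor PRPF40B without a filter. PRPF40B shares 2643 of 9444 exonic bases with FMNL3 on the opposite strand. The class took 0.262, 0.262 and 0.267% of counts with erianin, against 0.355, 0.298 and 0.299% with DMSO.

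SNRP genes encode the Sm ring and proteins particular to U1 or U2. SNRPA, a U1 protein that binds a stem loop of U1 small nuclear RNA (chromosome 19, 40750637 to 40765389, plus strand), had 157, 161 and 182 CPM with erianin, against 323, 306 and 306 CPM with DMSO. All erianin libraries were below all DMSO libraries, and SNRPA fell (log2 fold change -0.90 ± 0.10, adjusted p = 0.0025; -0.86 ± 0.065, adjusted p = 4.5e-11 without DMSO replicate 1). Its call held without any 1 library. SNRPB2, the related U2 protein, had 98.5, 92.2 and 78.3 CPM with erianin, against 65.8, 65.1 and 68.6 CPM with DMSO and rose (log2 fold change 0.43 ± 0.12, adjusted p = 0.034; 0.44 ± 0.081, adjusted p = 6.3e-05 without DMSO replicate 1). SNRPB2 over SNRPA gave a count ratio of 0.628, 0.572 and 0.430 with erianin, against 0.204, 0.213 and 0.224 with DMSO, without overlap. This pair was picked after its values were seen, so the direction follows from the choice. SNRPB2 lost its call when erianin replicate 1 or 2, or DMSO replicate 2 or 3, was left out (adjusted p = 0.078 to 0.15), and when no filter was used.

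The test covered 11 SNRP genes: 1 rose, 1 fell and 9 had no call, and without DMSO replicate 1 the calls were 5 higher and 1 lower of 11. These are 9.09% higher and 9.09% lower, beside 11.8% and 12.3% of all genes, and 45.5% and 9.09% without that library, beside 27.8% and 27.4%. Their median log2 fold change was 0.18 with all libraries and 0.017 without DMSO replicate 1. SNRPB, whose Sm protein B is part of every Sm ring, had 612, 597 and 696 CPM with erianin, against 159, 660.5 and 729 CPM with DMSO replicates 1, 2 and 3. DMSO replicate 1 lay far below the other 5 libraries, and the erianin libraries overlapped the other DMSO libraries (log2 fold change 0.30 ± 0.48, adjusted p = 0.69; -0.12 ± 0.067, adjusted p = 0.15 without DMSO replicate 1). SNRPD2 showed the same low library, with 264, 265 and 300.2 CPM with erianin, against 149, 298 and 299.9 CPM with DMSO, and was not called in either fit. In SNRPD1 that library was instead the highest, with 153, 145 and 141 CPM with erianin, against 214, 120.3 and 123 CPM with DMSO. Its log2 fold change was -0.06 ± 0.22 (adjusted p = 0.87) with all libraries and 0.28 ± 0.063, adjusted p = 5.4e-04 without DMSO replicate 1. SNRPE and SNRPF, also Sm ring proteins, had no overlap between groups and were called higher in the fit without DMSO replicate 1 (0.28 ± 0.069, adjusted p = 0.0012 for SNRPE and 0.30 ± 0.063, adjusted p = 2.4e-04 for SNRPF), as was SNRPA1, the partner of SNRPB2 in U2 (0.22 ± 0.063, adjusted p = 0.0041). SNRPD3, SNRPG and SNRPC, the last a U1 protein, were not called in either fit. The class took 0.236, 0.232 and 0.239% of counts with erianin, against 0.188, 0.227 and 0.233% with DMSO.

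**Figure D3:**
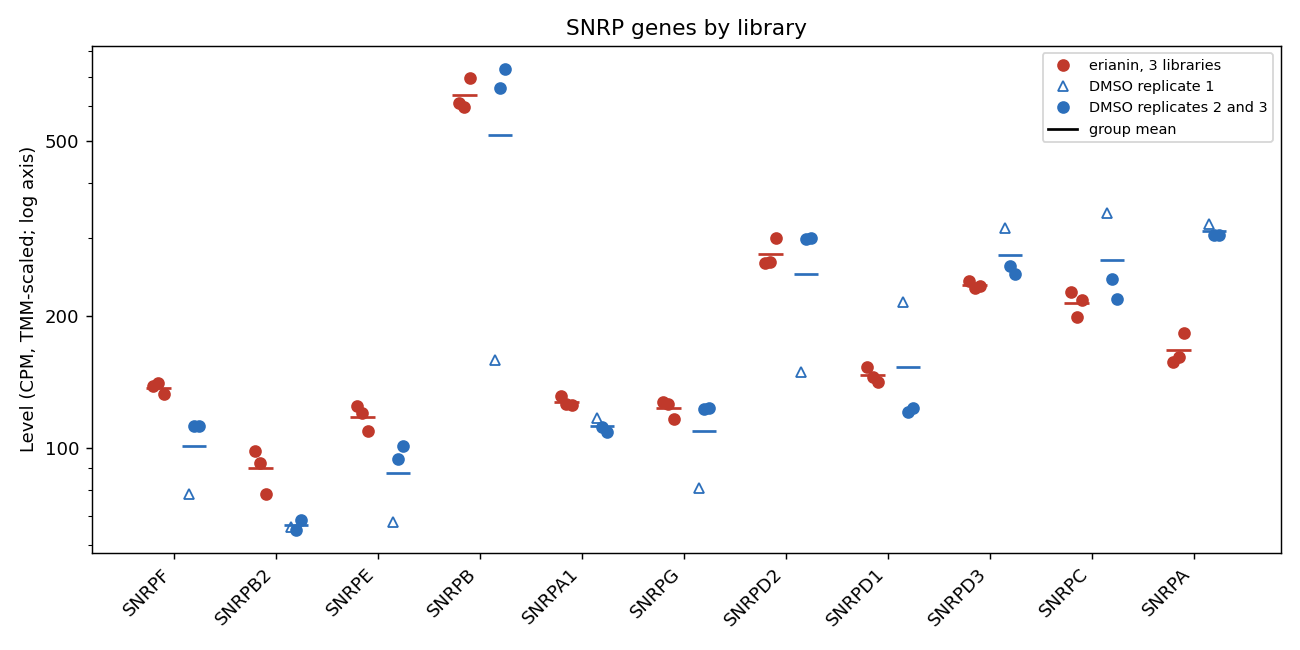
Level of the 11 SNRP genes in each library (CPM with TMM scaling, log axis), erianin in red and DMSO in blue, with DMSO replicate 1 as an open triangle and group means as lines. SNRPA lies lower in all erianin libraries, and SNRPB stands at 159 CPM in DMSO replicate 1, below the other 5 libraries.

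**Figure D4:**
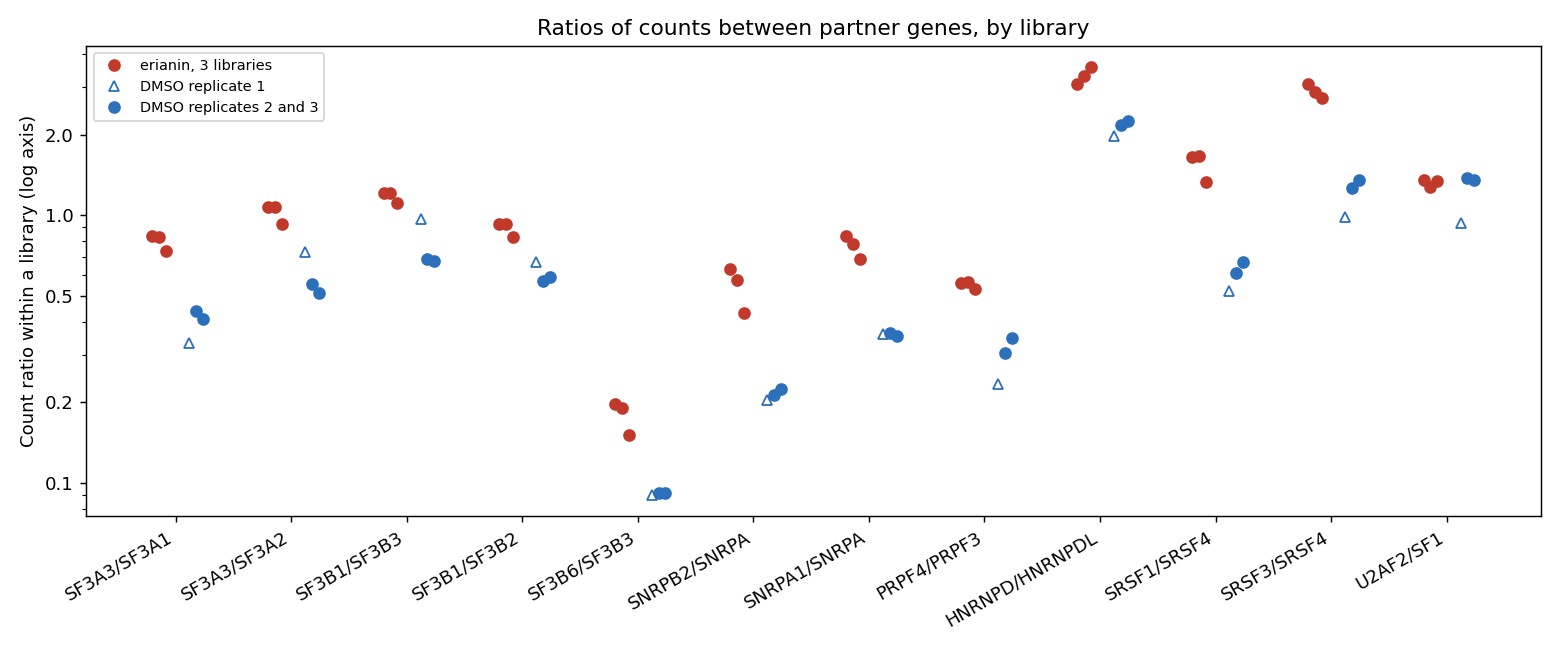
Count of the first gene over count of the second within each library (log axis), erianin in red and DMSO in blue, with DMSO replicate 1 as an open triangle. All 12 pairs computed are drawn, and the ratios need no scaling between libraries. In 11 pairs the erianin libraries lie above the DMSO libraries, while U2AF2 over SF1 overlaps. The pairs were picked after values were seen. In each, the first gene has the higher log2 fold change, so the shared direction follows from the choice. Ratios of other gene pairs were not computed.

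On the deposited TPM, SF3B5 had the highest value of the members, averaging 2330.0 TPM with erianin and 3123 TPM in DMSO replicates 2 and 3. SNRPB (1059 TPM with erianin and 1107 TPM in those DMSO libraries) and HNRNPA1 (1026 TPM with erianin and 1035 TPM in those DMSO libraries) came next. SRSF6 led the SR class, with 293 TPM with erianin and 313 TPM in those DMSO libraries.

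Partners of the members were read from lists of genes named for their roles. Their shares stand beside 11.8% higher and 12.3% lower of all genes with all libraries, and 27.8% and 27.4% without DMSO replicate 1. SR proteins are phosphorylated by SRPK and CLK kinases, and in the list of genes for these kinases and for other modifiers and the importer of SR proteins, 0 rose and 4 fell of 10 tested, with 2 higher and 6 lower without DMSO replicate 1 (0% and 40%, then 20% and 60%). CLK2 had 142, 144 and 149 CPM with erianin, against 275, 226 and 219 CPM with DMSO and fell (log2 fold change -0.73 ± 0.12, adjusted p = 0.0064), as did DYRK1A (log2 fold change -0.71 ± 0.14, adjusted p = 0.013), CLK3 and CLK4. Among SR-related and RBM proteins, 0 rose and 7 fell of 26 tested, with 3 higher and 16 lower without DMSO replicate 1 (0% and 26.9%, then 11.5% and 61.5%). LUC7L2, a U1-associated protein, had 71.4, 76.5 and 78.9 CPM with erianin, against 226, 122 and 126 CPM with DMSO and fell (log2 fold change -1.06 ± 0.24, adjusted p = 0.02), and RBM23 fell with tight values in both groups, with 57.8, 57.5 and 60.3 CPM with erianin, against 109, 111 and 111 CPM with DMSO (log2 fold change -0.92 ± 0.092, adjusted p = 0.0017). Among hnRNP-like proteins with other symbols, 2 rose and 3 fell of 21 tested, with 8 higher and 5 lower without DMSO replicate 1 (9.52% and 14.3%, then 38.1% and 23.8%). PTBP1, which binds polypyrimidine tracts and represses exons, averaged 700.2 ± 17.2 CPM with erianin and 1117 ± 49.7 CPM with DMSO (SD, n = 3 each) and fell (log2 fold change -0.67 ± 0.094, adjusted p = 0.0043), and SYNCRIP, a close relative of HNRNPR, averaged 441 ± 33.2 CPM with erianin and 289 ± 71.8 CPM with DMSO and rose (log2 fold change 0.61 ± 0.18, adjusted p = 0.044). TIA1 rose (log2 fold change 0.42 ± 0.10, adjusted p = 0.024) and PCBP2 fell (log2 fold change -0.54 ± 0.12, adjusted p = 0.02).

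For U1, U5 and tri-snRNP proteins outside the symbol rule, 1 rose and 6 fell of 19 tested, with 2 higher and 10 lower without DMSO replicate 1 (5.26% and 31.6%, then 10.5% and 52.6%). SNRNP200, the helicase that unwinds U4/U6, averaged 679 ± 11.3 CPM with erianin and 1181 ± 99.0 CPM with DMSO (SD, n = 3 each) and fell (log2 fold change -0.80 ± 0.10, adjusted p = 0.0034), as did USP39 (log2 fold change -0.57 ± 0.09, adjusted p = 0.0062), and PPIH rose (log2 fold change 0.39 ± 0.12, adjusted p = 0.049). In the list of the Prp19 complex and late-acting helicases, 1 rose and 3 fell of 23 tested, with 3 higher and 10 lower without DMSO replicate 1 (4.35% and 13.04%, then 13.04% and 43.5%). BCAS2, a core subunit beside PRPF19, averaged 30.99 ± 1.96 CPM with erianin and 18.7 ± 4.11 CPM with DMSO and rose (log2 fold change 0.73 ± 0.17, adjusted p = 0.021), whereas XAB2 (log2 fold change -0.65 ± 0.13, adjusted p = 0.012) and the helicase gene DHX35 fell (log2 fold change -0.64 ± 0.094, adjusted p = 0.005). The next list held Sm-like LSM genes and SMN assembly genes, of which the latter load Sm rings. Of 24 tested, 1 rose and 2 fell, with 8 higher and 6 lower without DMSO replicate 1 (4.17% and 8.33%, then 33.3% and 25%). WDR77, a partner of the methyltransferase PRMT5, rose (log2 fold change 0.54 ± 0.12, adjusted p = 0.016) and LSM2, of the ring on U6, fell (log2 fold change -0.68 ± 0.11, adjusted p = 0.0074). CLNS1A, which carries Sm proteins to PRMT5, fell (log2 fold change -0.59 ± 0.14, adjusted p = 0.024). Of minor spliceosome genes, 0 rose and 2 fell of 8 tested, with 2 higher and 2 lower without DMSO replicate 1 (0% and 25%, then 25% and 25%). Those that fell were SCNM1 (log2 fold change -0.64 ± 0.13, adjusted p = 0.016) and ZMAT5 (log2 fold change -0.52 ± 0.10, adjusted p = 0.012). Of genes for the exon junction complex and nonsense-mediated decay, 1 rose and 3 fell of 17 tested, with 3 higher and 10 lower without DMSO replicate 1 (5.88% and 17.6%, then 17.6% and 58.8%). SMG9, which binds the SMG1 kinase of this decay pathway, had 36.3, 35.3 and 38.4 CPM with erianin, against 104, 74.6 and 79.7 CPM with DMSO and fell (log2 fold change -1.23 ± 0.14, adjusted p = 0.0028), and RBM8A, an exon junction core protein, rose (log2 fold change 0.49 ± 0.11, adjusted p = 0.022).

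Of the companion genes named, RBM23, PTBP1, SNRNP200, SMG9 and DHX35 kept their calls without any 1 library. The calls of CLK2, DYRK1A, LUC7L2, SYNCRIP, USP39, BCAS2, XAB2, WDR77, LSM2, RBM8A, CLK3, CLK4, TIA1, PCBP2, PPIH, CLNS1A, SCNM1 and ZMAT5 were lost without erianin replicate 1, and most of them without further libraries other than DMSO replicate 1 (highest adjusted p per gene 0.051 to 0.18). On the deposited TPM, only the calls of LUC7L2, SYNCRIP, BCAS2 and SMG9 among these genes remained. Without DMSO replicate 1, every companion gene named with a call kept it. The lists of SR protein kinases, SR-related proteins and the minor spliceosome held 0 genes higher by edgeR at an unadjusted p under 0.05. They also held 0 by DESeq2, both with all libraries. The other companion lists held 1 to 4 and 1 to 2 such genes. By DESeq2, 5 of 10 kinase-list genes, 15 of 26 SR-related genes and 2 of 8 minor spliceosome genes were lower. Of the 11773 genes that passed edgeR's filter without DMSO replicate 1, 13.4% were higher and 15.7% lower by DESeq2. The share of all genes at the unadjusted threshold was not computed.

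**Figure D5:**
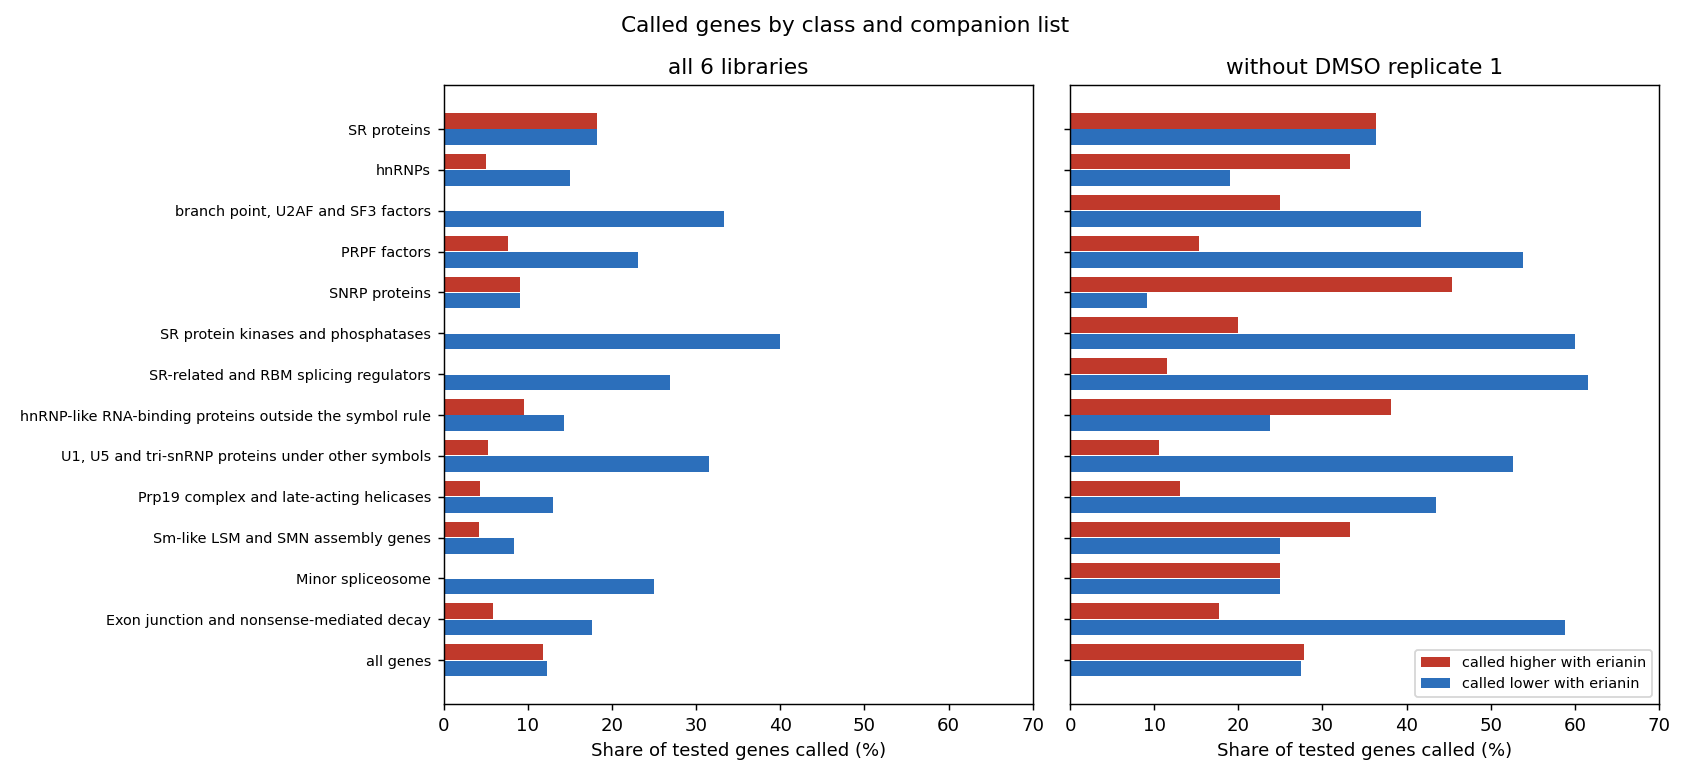
Share of tested genes called higher (red) and lower (blue) with erianin in each class of members, each companion list and all genes, with all 6 libraries (left) and without DMSO replicate 1 (right). The bars for all genes stand at 11.8% and 12.3% on the left and at 27.8% and 27.4% on the right.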

How the data were processed

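RNA was sequenced from SU-DHL-8 cells, with 3 erianin and 3 DMSO libraries grouped by their sample titles. The authors deposited raw counts per gene symbol and TPM. Per the submitters' processing notes, the tools were fastp 0.23.2, STAR 2.7.10, featureCounts 2.0.1 and StringTie 2.2.1 with GRCh38. For the annotation release, strand setting and multi-mapping reads, the sources used here name no choice. Of 65807 rows, 61 repeated a symbol and were left out.

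Counts were scaled by TMM and tested over all genes with edgeR 4.0.16 in R 4.3.3 (quasi-likelihood test, Benjamini-Hochberg adjustment, threshold 0.05), after edgeR's default filter on low counts left 11550 genes. CPM values and SE of log2 fold changes come from this fit. Alternatives were other scalings and filters, DESeq2 1.42.0 (adjusted p-values given as NA were kept as NA), limma 3.58.1 (voom on counts, and on log2 TPM), a block for the replicate number, and leaving out each library. Offsets for GC content and transcript length were added after results were known. Every member could be named; of each companion list, up to 2 genes called higher and 2 called lower with the largest change were named, except that 1 member and 1 companion gene are counted but not reported by name here. CLK3 and CLK4 fall outside that rule and were named after their values were seen. The members and lists were chosen with earlier results of these data known.

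A floor of 3 counts corresponds to 0.0819 to 0.0986 TMM-scaled CPM per library and covers counting error only. The edgeR, DESeq2 and voom scripts were run on simulated counts, only to find coding errors. Exon overlaps and gene positions come from GENCODE 29.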

Additional observations from a re-analysis of the deposited data

How the results depend on the processing

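With all libraries, 1368 genes were higher and 1423 lower with erianin, and 5 members were higher and 13 lower. Leaving out each library in turn gave 407 to 3278 higher and 338 to 3227 lower genes, and 0 to 21 higher and 4 to 21 lower members, with the highest values without DMSO replicate 1. Scaling by total counts alone gave 918 lower genes and 10 higher members. The deposited TPM gave 262 lower genes with a pseudocount of 1 and 245 with 0.1, and 4 lower members with either, and shifted the median log2 fold change of all genes to 0.20 and 0.28. Offsets for GC content and length gave 2460 lower genes, 8 higher and 24 lower members. The cause was not tested. Leaving out each library, the log2 fold change ran from -0.28 (without DMSO replicate 2) to 0.22 (without DMSO replicate 1) for SF3B4, and from -0.21 to 0.28 for SNRPD1 in the same order, against -0.13 and -0.06 with all libraries. Upper-quartile scaling gave 1763 higher and 1093 lower genes.

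The replicate block gave 1139 higher and 1157 lower genes, with 4 higher and 11 lower members. Of the 18 member calls, 14 held, and PRPF4, PRPF8, PRPF40B and SNRPB2 were not called. Deviations of same-numbered libraries correlated at 0.17, -0.14 and 0.23 for replicates 1, 2 and 3. They were taken from group means, which DMSO replicate 1 shifts, so they cannot decide whether the numbers mark pairs. The labels do not say that they do, and the main test used no pairs. With the block and the offsets together, 4 members were higher and 18 lower, and 17 of the 18 calls held.

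Genes near the floor of counts cannot show small differences at this depth, which touches SRSF12, HNRNPCL1 and HNRNPUL2-BSCL2.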
